A study of Mus musculus with 6 samples.

Results

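The ABC transporter genes of mouse liver were followed in wild-type (WT) mice and in mice lacking *Txndc5* (knock-out, KO). A gene counted as a member when its symbol was Abc, a class letter from a to g and a number. By the same rule 1 gene with such a symbol was left out. Of 16123 genes in the table of the series 41 met this rule, and 39 of them are described here, so that all counts of members cover these 39. Livers came from male mice aged 2 months, labelled C57BL/6Rj for the WT and C57BL/6JRj-Txndc5<em2Mdnp>/Ciba for the KO, that ate a purified chow diet for 4 weeks and were fasted for 16 h. Each genotype gave 3 libraries of polyA RNA, and each library was a pool of equal amounts of liver RNA from 3 mice. The KO allele, made by CRISPR in zygotes, lacks the third exon of *Txndc5* in every cell of the body, and the KO mice descend from 1 founder. WT and KO mice shared sex, diet and fasting and differed in the *Txndc5* genotype.

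ABC transporters are membrane proteins that bind and split ATP to move a substrate across a membrane. In hepatocytes some sit at the canalicular membrane and fill the bile with phospholipid, sterol and conjugated anions, while others return anions to the blood or load cholesterol onto lipoproteins. Further members import very long chain fatty acids into peroxisomes or work in mitochondrial iron and haem handling. The E and F classes have the ATP-binding domains and no membrane span, and act on ribosomes.

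The table gives 1 value per genotype and gene, the mean of reads divided by a size factor per library after a shrinkage of the difference between genotypes toward none. These values therefore carry no spread, and differences between them were called by size alone, past 1.5 fold, in genes whose mean value was at least 10. Libraries held 44040160 to 46050030 clean reads, with 91.63% to 93.66% mapped and 0.26% to 0.69% ribosomal RNA. WT pools 1 and 5 had 47.48 M raw reads and the other 4 libraries 49.97 M, so the WT libraries were not all read to the same depth. The targeted gene, *Txndc5*, was at 2697 in the WT libraries and at 90.8 in the KO libraries, 29.7-fold lower, which matches the genotype labels. The defining hepatocyte genes were abundant in both genotypes, at a summed value of 1830140 in WT and 1775620 in KO over 8 genes.

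Promoter sequence is printed here for some members. *Abcg5* and *Abcg8*, which together make one sterol pump, are read in opposite directions from starts 109 bases apart on chromosome 17, and they are shown together with the stretches before *Abce1* and *Abcb10*, which had the lowest and the highest KO over WT ratio among members with a mean of at least 10. RefSeq places the starts on GRCm38.p6, the assembly also called mm10. For *Abcg8* this is the later of 2 starts, the earlier one lying inside *Abcg5*. The stretch of *Abce1* ends where an exon of the gene read away from it begins. Each line gives the bases before the start, 5′ to 3′ on the strand of the gene named (plus strand for the shared stretch). Capitals mark matches, on either strand, to any of 8 short motifs that were searched. Those of general promoter factors were the TATA box, with the letters TATAAA, the CCAAT box, searched as its name is written, and the GC box, with the letters GGGCGG. Sites of regulated factors were the cyclic AMP element or CRE, searched as TGACGTCA, the E-box, whose letters were taken as CACGTG, and the ETS site, for which the search used CCGGAAG. The last were the core site of nuclear receptors, spelled AGGTCA in the search, and the site of GATA factors, for which it was TGATAA.
between Abcg5 and Abcg8, chr17:84683012-84683120: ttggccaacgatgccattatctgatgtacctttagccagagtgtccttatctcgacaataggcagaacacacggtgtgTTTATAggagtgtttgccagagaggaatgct
Abce1, chr8:79711741-79711819, minus strand: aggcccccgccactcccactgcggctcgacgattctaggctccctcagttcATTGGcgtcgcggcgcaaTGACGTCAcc
Abcb10, chr8:123983123-123983272, minus strand: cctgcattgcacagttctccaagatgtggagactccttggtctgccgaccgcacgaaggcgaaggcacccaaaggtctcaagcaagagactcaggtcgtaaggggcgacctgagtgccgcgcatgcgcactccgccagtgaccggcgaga

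The stretch shared by *Abcg5* and *Abcg8* held a TATA box, read on the minus strand, and none of the other motifs. A TATA box stood in the 109 bases before 5.90% of 32851 RefSeq starts. *Abce1* held a CCAAT box, again on the minus strand, and a CRE close to its start. Among all starts, 15.1% had a CCAAT box and 0.989% a CRE in the 79 bases before them. The stretch of *Abcb10* matched none of the 8 motifs. GC made up 65.8% of the *Abce1* stretch, 61.3% of that of *Abcb10* and 45.9% of the shared one. Over the 30 members with a sequence, which had 37 starts, the 250 bases before a start had a median GC content of 60.4%, against 52.4% over all starts.

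Levels were compared between genes per kb of gene length, since members were long genes: their median length was 4872 bases and that of all genes 2667. The mean value per kb spanned from 1764 for *Abcb4*, which flips phosphatidylcholine into bile, down to 0.0751 for *Abcg4*, a sterol transporter best known from brain. *Abcd3*, the most abundant ABC protein of the peroxisome membrane, followed at 1239 per kb, and *Abcc3*, which returns conjugates to the blood, at 726.0 per kb. Next were *Abcb6*, at 564 per kb, and *Abcc2*, at 561 per kb. Together these 5 members made up 55.6% of the summed value per kb of those described. *Abcb6* is a porphyrin transporter and *Abcc2* exports conjugated bilirubin into bile. In the middle of the order stood *Abca8a* at 51.7 per kb, and 24 members lay above the median of all genes, 21.1 per kb. By the mean value itself, 5 members reached 2000, 11 lay from 500 to 2000, 12 from 50 to 500, 5 from 10 to 50, and 6 were under 10.

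**Figure D1:**
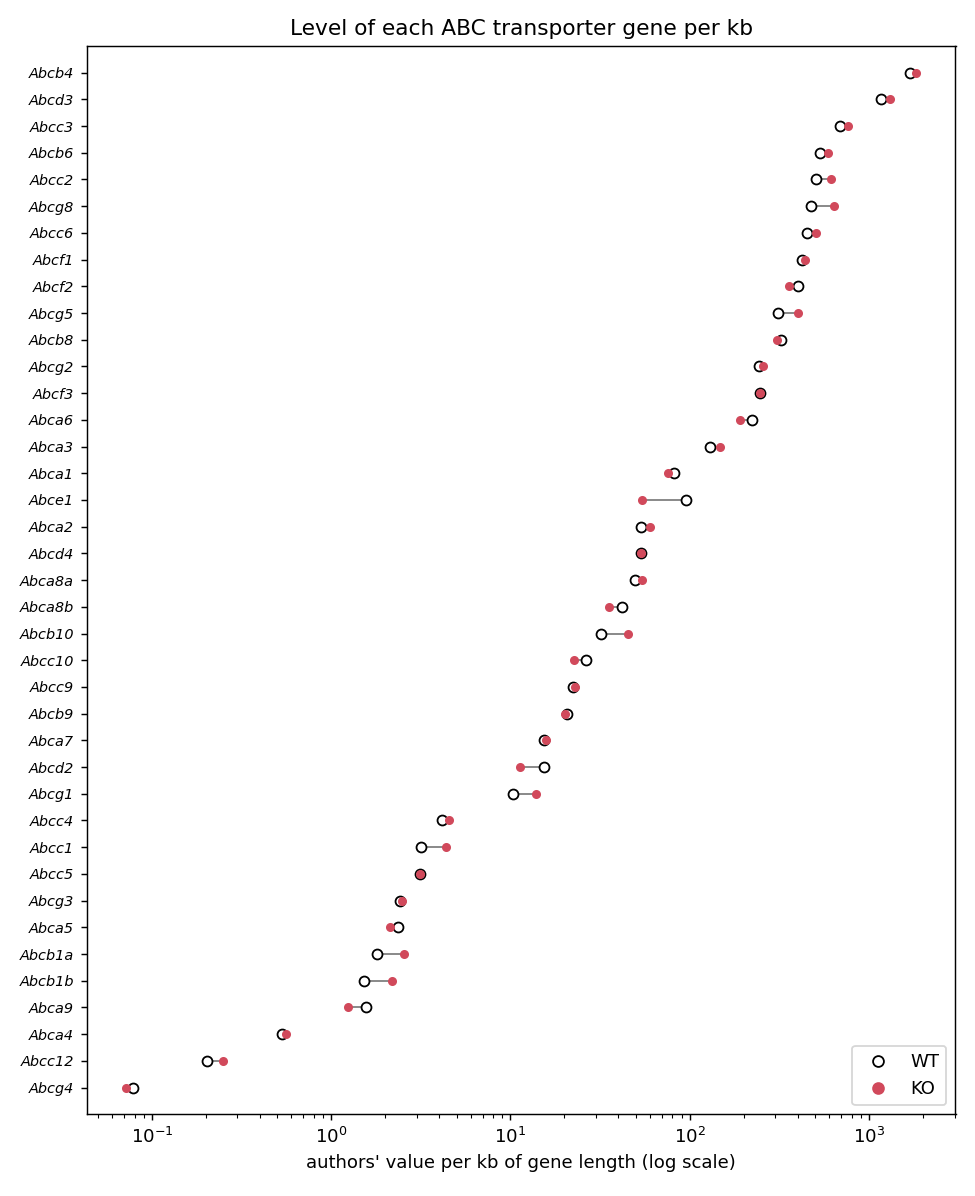
Level of each of the 39 ABC transporter genes in WT (open circles) and KO (red circles), as the authors' value per kb of gene length on a log scale, ordered by the mean of both. The order from *Abcb4* to *Abcg4* covers 4 to 5 powers of 10, and the genotypes are close together in most rows.

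Neighbours in this order changed places between genotypes where their levels were close. *Abcb6*, *Abcc2* and *Abcg8* stood at 536, 506 and 473 per kb in WT, and in the reverse order at 592, 615 and 637 per kb in KO. No spread between libraries was at hand for these abundant genes, so their order was not tested. Among weakly expressed members, *Abcc4* at 4.34, *Abcc1* at 3.78 and *Abcc5* at 3.12 per kb were neighbours whose libraries spread more widely than these levels differ, as the read counts further on show.

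Of the 33 members whose mean value was at least 10, none was past 1.5 fold higher in KO, where 1.57% of all 11367 such genes were. Past 1.5 fold lower stood 1 member, *Abce1*, where 5.79% of all such genes were lower. The median log2 ratio of KO over WT was 0.08 over these members, with a range from -0.81 to 0.51, and -0.05 over all genes. Above 0 lay 22 of the 33 members, and below it 11, while 42.3% of all genes lay above 0. The middle 50% of members ran from -0.08 to 0.16 on this log2 scale, and that of all genes from -0.23 to 0.13. No member under a mean of 10 was past 1.5 fold either, with log2 ratios from -0.33 to 0.51. The values understated differences where this could be measured. It was measured in 1087 genes with 1 possible set of reads, a sum of 250 to 600 normalized reads and a ratio not near 0. Their log2 ratio of library means was a median 1.21 times that of the deposited values (5th to 95th percentile 1.13 to 1.40). In more abundant genes the shrinkage was not measured. Weaker members could be shrunken more, such as *Abcb1a* from 0.89 to 0.50. By the means of recovered libraries, *Abcb1a* and *Abcc1* (0.62) were past 1.5 fold higher and *Abcd2* (-0.59) lower. Under a mean of 10, *Abcb1b* (0.89) and *Abcc12* (2.13, on few reads) were also past it higher. Except in *Abcc1*, the libraries of these genes overlapped between genotypes. The calls here and in the lists below hold for the deposited values alone. No such count by library means was made over all genes.

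**Figure D2:**
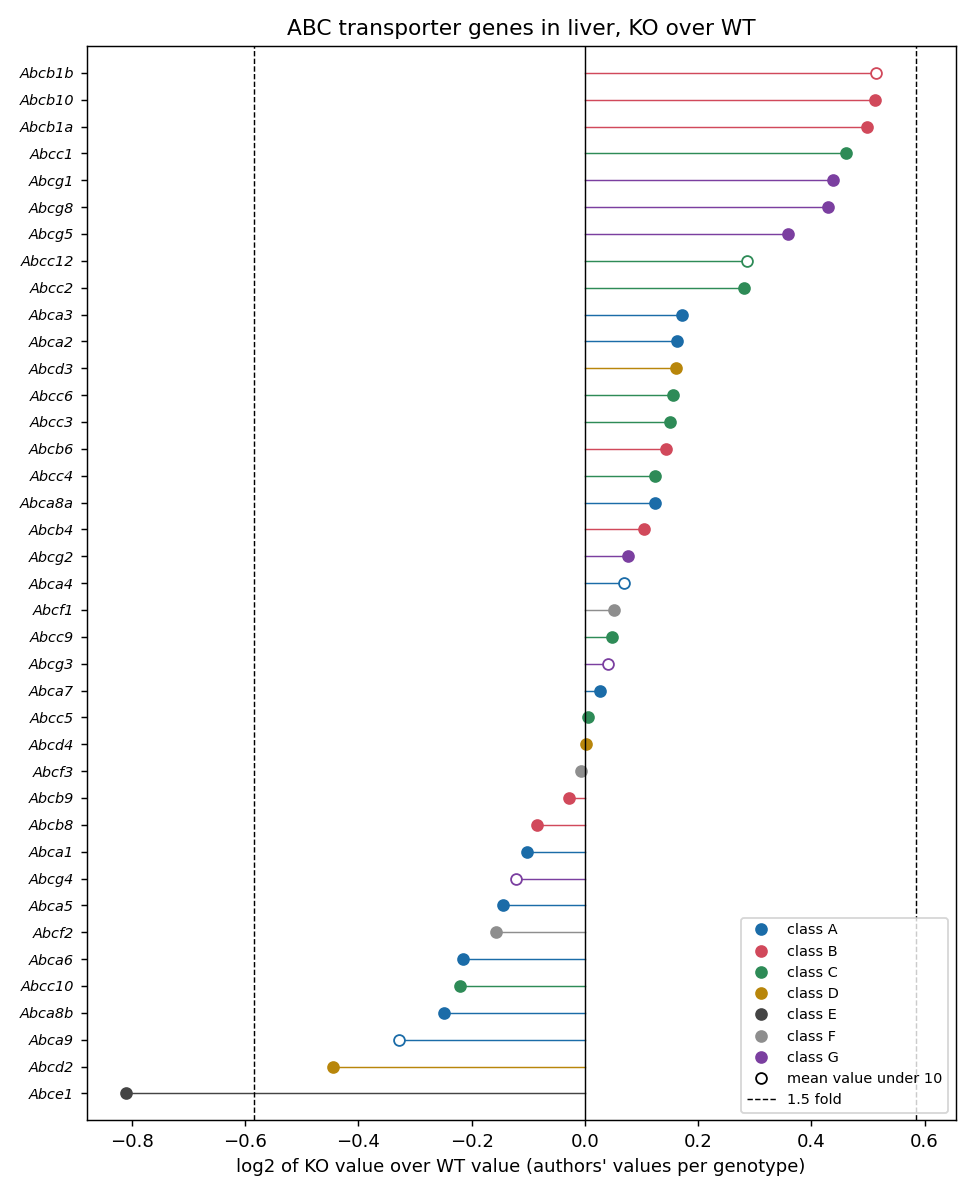
The log2 ratio of KO over WT for each of the 39 members, from the authors' 1 value per genotype, coloured by class, with open circles for members whose mean value is under 10. Dashed lines stand at 1.5 fold: *Abce1* lies past the lower line, and none lies past the upper one.

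Sterol and lipoprotein lipid efflux had the highest median of the role lists, 0.39 over its 4 members with a mean of at least 10, and none of them was past 1.5 fold. Against the genes nearest in GC content, a step described further on, it was at 0.36 and the canalicular list was the highest at 0.43. *Abcg8* was at 1689 in WT and 2274 in KO (log2 ratio 0.43). *Abcg5*, its partner in pumping cholesterol and plant sterols into bile, had 751 in WT and 963 in KO (log2 ratio 0.36). The pair that shares the 109 bases printed above lay on the same side of 0 with close ratios, and the part of the shared stretch in this was not tested. *Abcg1*, which passes cholesterol to formed HDL particles, had 59.8 in WT and 81.1 in KO (log2 ratio 0.44). *Abca1*, which loads phospholipid and cholesterol onto lipid-poor apolipoprotein, lay on the other side, at 835 in WT and 778 in KO (-0.10). *Abcg4* was at 0.28 in WT and 0.26 in KO, too low to compare.

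In the canalicular list of phospholipid and drug exporters, 4 of the 4 members of at least 10 lay above 0, with none past 1.5 fold and a median log2 ratio of 0.19. *Abcb4* was at 6944 in WT and 7465 in KO (log2 ratio 0.10). *Abcc2* had 2729 in WT and 3315 in KO (0.28). *Abcg2*, which exports urate and many drugs, had 604 in WT and 637 in KO (0.08). The paired rodent forms of P-glycoprotein, the broad drug pump, were near the floor: *Abcb1a* had 8.95 in WT and 12.6 in KO, and *Abcb1b* had 6.63 and 9.48. These neighbours on chromosome 5 share part of their sequence, with 15.5% of the 50-base windows of the *Abcb1a* transcript found unchanged in *Abcb1b*. How reads from those shared windows were split between them is uncertain. The next highest share was 3.15%, that of *Abcb4* with *Abcb1a*.

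Among the exporters of organic anions and nucleotides, 5 of 6 members of at least 10 lay above 0, none past 1.5 fold, with a median of 0.14. *Abcc3* was at 3442 in WT and 3821 in KO (0.15). *Abcc6*, a liver gene needed for ATP release and for the plasma pyrophosphate made from it, had 2241 in WT and 2498 in KO (0.16). *Abcc10*, a drug and lipophilic anion pump, was the one below 0, at 128 in WT and 109.7 in KO (-0.22). The rest of the list was weak in liver. *Abcc4*, an exporter of cyclic nucleotides and bile acids to the blood, had 22.8 in WT and 24.9 in KO, *Abcc5*, also a cyclic nucleotide pump, had 18.1 and 18.2, and *Abcc12* had 0.919 and 1.12. *Abcc9*, the regulatory subunit of a potassium channel of smooth muscle and pericytes, had 164 in WT and 169.5 in KO (0.05).

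The D class had a median of 0.00 over 3 members, with log2 ratios from -0.44 to 0.16 and none past 1.5 fold. *Abcd3* was at 3977 in WT and 4444 in KO (0.16). *Abcd2*, which brings very long chain fatty acids into peroxisomes, was the farthest from 0 of these 3, at 85.7 in WT and 63.0 in KO (-0.44). *Abcd4*, which works in lysosomal cobalamin release, had 135.7 in WT and 135.8 in KO.

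The mitochondrial and porphyrin B class had a median of 0.14 over 3 members, with none past 1.5 fold. *Abcb10*, an inner membrane transporter known for its role in haem synthesis of red cell precursors, was at 138 in WT and 197 in KO (log2 ratio 0.51). *Abcb6* had 1630 in WT and 1801 in KO (0.14), and *Abcb8*, a further inner membrane member, had 962 and 908 (-0.08). Red cell markers also differed between genotypes, which bears on *Abcb10* and *Abcb6*: 6 of 6 measured at a mean of at least 10 were higher in KO, 3 of them past 1.5 fold, with a summed value of 118834 in WT and 180440 in KO over 7 genes. The part of these cells in the *Abcb10* difference was not tested. In a bulk sample, more cells of a type and more RNA per cell cannot be told apart.

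The A class outside *Abca1* had a median of 0.03 over 7 members, with none past 1.5 fold. *Abca3*, a phospholipid transporter of lamellar bodies in lung, was at 846 in WT and 953 in KO (0.17). *Abca6*, a cholesterol-responsive member, had 916 in WT and 790.0 in KO (-0.21). *Abca2*, a lysosomal member best known from brain, had 429 in WT and 481 in KO (0.16). *Abca8a* had 279 in WT and 303 in KO (0.12), and its paralog *Abca8b* had 259 and 218 (-0.25), so these neighbours lay on opposite sides of 0. *Abca7*, a phospholipid transporter studied in microglia, had 101.9 in WT and 103.8 in KO (0.03). *Abca8b*, *Abca8a*, *Abca9*, *Abca6* and *Abca5* stand in that order side by side on chromosome 11, and 4 of these 5 lay below 0. All 5 had 39.8% to 44.2% GC, where the median of all genes was -0.41 to -0.04 by GC range, and *Abca5* turned to 0.26 against genes of like GC content. The weak members were *Abca5* at 19.6 and 17.8, *Abca9* at 9.80 and 7.80, and *Abca4* at 3.89 and 4.07 in WT and KO.

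The soluble E and F classes had the lowest median of the role lists with several members, -0.08 over 4. *Abce1*, which splits ribosomes after termination and carries iron-sulphur clusters, was at 363 in WT and 207 in KO, 1.75-fold lower (log2 ratio -0.81). It was the farthest from 0 of all 39 members in the deposited values, though not after the GC step described next, which also ended its call. The F class lay close to 0: *Abcf1*, a factor of translation initiation, had 1351 in WT and 1401 in KO (0.05). *Abcf2* had 1028 in WT and 922 in KO (-0.16). *Abcf3*, like it a little studied ribosome-linked protein, had 814 in WT and 810.1 in KO (-0.01). Outside these lists, *Abcb9*, a lysosomal peptide transporter, had 68.5 in WT and 67.2 in KO (-0.03), and the rodent gene *Abcg3* had 7.32 and 7.53.

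The ratios differed with the GC content of transcripts at its lower end. Over all genes the median log2 ratio rose from -0.53 under 38% GC to 0.04 at 47% to 53%, and then declined to -0.09 at 59% and more. The medians of the members were -0.14 at 38% to 41%, -0.23 at 41% to 44% and highest, 0.36, at 50% to 53%. They rose and fell less evenly than those of all genes, in ranges that held 7 members at most. All genes with under 44% GC in their longest annotated transcript had a median log2 ratio of -0.29 (2169 genes), and those with 44% or more had -0.01 (9146 genes). The 7 members under 44% had a median of -0.21, and 5 of them lay below 0. The 26 members at 44% or more had a median of 0.13, and 20 of them lay above 0. Spearman's rho between GC content and log2 ratio was 0.24 across the 33 members and 0.23 across 11315 genes, which are not independent replicates and share the same libraries.

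The members farthest below 0, *Abce1* and *Abcd2*, were both poor in GC. *Abce1* had 40.3% GC. The 500 genes nearest to it in GC content had a median log2 ratio of -0.37, which left -0.44 for *Abce1* beyond that median. Of all genes with 38% to 41% GC, 34.1% were past 1.5 fold lower in the deposited values. *Abcd2*, at 41.6% GC, kept -0.15 of its -0.44. Measured in this way, no member was past 1.5 fold in either direction. *Abcg2*, at 39.2% GC, turned from 0.08 to 0.52, since its GC neighbours had a median of -0.44. *Abca8a* moved from 0.12 to 0.28, *Abcb4* from 0.10 to 0.04, and *Abcd4* and *Abcc5* turned to -0.05 and -0.04. Of the members named above with the higher ratios, *Abcb10* stood at 0.49, *Abcg1* at 0.41, *Abcg8* at 0.40 and *Abcg5* at 0.31.

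**Figure D3:**
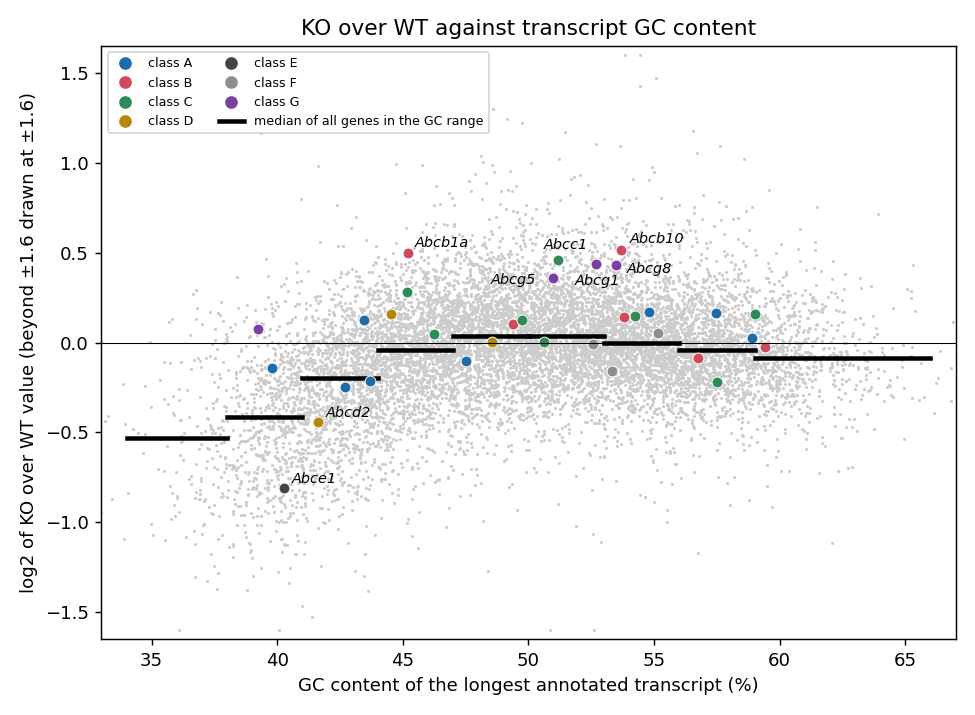
The log2 ratio of KO over WT against the GC content of the longest annotated transcript, in percent, for genes whose mean value is at least 10 (grey), the 33 members among them (coloured by class) and the median of all genes in each GC range (black bars). *Abce1* and *Abcd2* lie at the GC-poor end, in ranges where the medians of all genes are -0.41 and -0.20.

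Reads per library could be worked out for weakly expressed genes, because the mean of the genotype values is a sum of 6 whole read numbers, each divided by the size factor of its library. This gave the reads of 16 members. The libraries so recovered carry no pool number, so they are named by genotype and by falling size factor, as KO-a (1.31), KO-b (1.04), KO-c (0.886), WT-a (1.22), WT-b (0.879) and WT-c (0.818). Over the 3325 genes tested below, WT-a stood apart and KO-a was the library nearest to it. The a libraries over the b and c libraries had a median log2 ratio of 1.14 in genes with under 44% GC and of 0.12 in the others. Log2 values of KO-a correlated with those of WT-a across genes at r = 0.749, whereas WT-a correlated with the b and c libraries at 0.322 to 0.381. KO-a did so at 0.513 to 0.603, and the b and c libraries among themselves at 0.550 to 0.725. Genes are not independent replicates, and these r values describe the libraries only.

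*Abcd2* had 102, 58.9 and 16.9 normalized reads in KO-a, KO-b and KO-c, a mean of 59.3 ± 42.6 (SD, n = 3). It had 156, 54.6 and 57.5 in WT-a, WT-b and WT-c, a mean of 89.3 ± 57.7 (SD, n = 3). Its genotypes overlapped, each a library was the highest of its genotype, and KO-c was the lowest of all (exact two-sided permutation test, p = 0.7).

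*Abcg1* had 109.7, 75.3 and 63.2 normalized reads in the KO libraries and 73.5, 58.0 and 42.8 in the WT libraries. The means were 82.8 ± 24.1 and 58.1 ± 15.3 (SD, n = 3 each), KO-c lay within the WT range and KO-b just above it, and each a library was the highest of its genotype (exact two-sided permutation test, p = 0.2).

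*Abcc1*, an exporter of leukotriene and glutathione conjugates, had 25.9, 29.9 and 26.0 normalized reads in KO and 25.3, 18.2 and 9.78 in WT. All KO libraries lay above all WT libraries, by a margin of under 1 read between KO-a and WT-a. The means were 27.3 ± 2.30 and 17.8 ± 7.77 (SD, n = 3 each), and the exact two-sided permutation test gave p = 0.1, the smallest that 3 against 3 libraries allow. The deposited values of *Abcc1* were 18.9 in WT and 26.1 in KO (log2 ratio 0.46). Before division by the size factors its reads were 34, 31 and 23 in KO and 31, 16 and 8 in WT, and then the genotypes overlapped. Of 12 members with a sum of 20 to 600 normalized reads over the 6 libraries, *Abcc1* was the 1 that did not overlap with KO higher, and 3.13% of all 5648 such genes did so. None did so with KO lower, where 2.6% of all did. With 1 library left out the number of members without overlap was 1 to 3. This number was 2 without KO-a, KO-b or KO-c and 3 without WT-a. Smaller groups separate more often by construction. No share over all genes was counted for this, so these numbers are not read as a result.

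*Abcb1a* had 12.2, 3.86 and 26.0 normalized reads in KO and 12.2, 6.82 and 3.67 in WT, so that KO-c alone stood above the rest. *Abcb1b* had 12.2, 6.76 and 12.4 in KO and 7.35, 2.27 and 7.34 in WT, with KO-b inside the WT range. *Abcc4* had 24.4, 23.2 and 28.2 in KO and 28.6, 20.5 and 18.3 in WT, with all KO libraries inside the WT range.

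*Abca7* had 96.0, 91.7 and 124 normalized reads in KO and 98.0, 91.0 and 116 in WT, and was the evenest of the members recovered. *Abcd4* had 113.5, 175 and 119.7 in KO and 155, 167 and 84.4 in WT. *Abcb9* had 41.9, 72.4 and 86.9 in KO and 43.3, 100.1 and 62.4 in WT, lowest in both a libraries. For these 3 members more than 1 set of read numbers met the sum, and the set that also met the ratio of the deposited values was taken.

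*Abcc5* had 25.9, 16.4 and 12.4 normalized reads in KO and 30.2, 5.69 and 18.3 in WT. *Abca5*, of 39.8% GC, had 28.2, 12.6 and 11.3 in KO and 39.2, 14.8 and 6.11 in WT. *Abca9* had 13.0, 4.83 and 3.39 in KO and 18.8, 7.96 and 4.89 in WT, and *Abcg3* had 16.0, 4.83 and 2.26 in KO and 18.0, 2.27 and 1.22 in WT. All 4 were highest in the a library of each genotype. Among the 12 members, WT-a was the highest WT library in 10 and KO-a the highest KO library in 7, and over the 5648 genes this held for 53.1% and 52.6%.

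**Figure D4:**
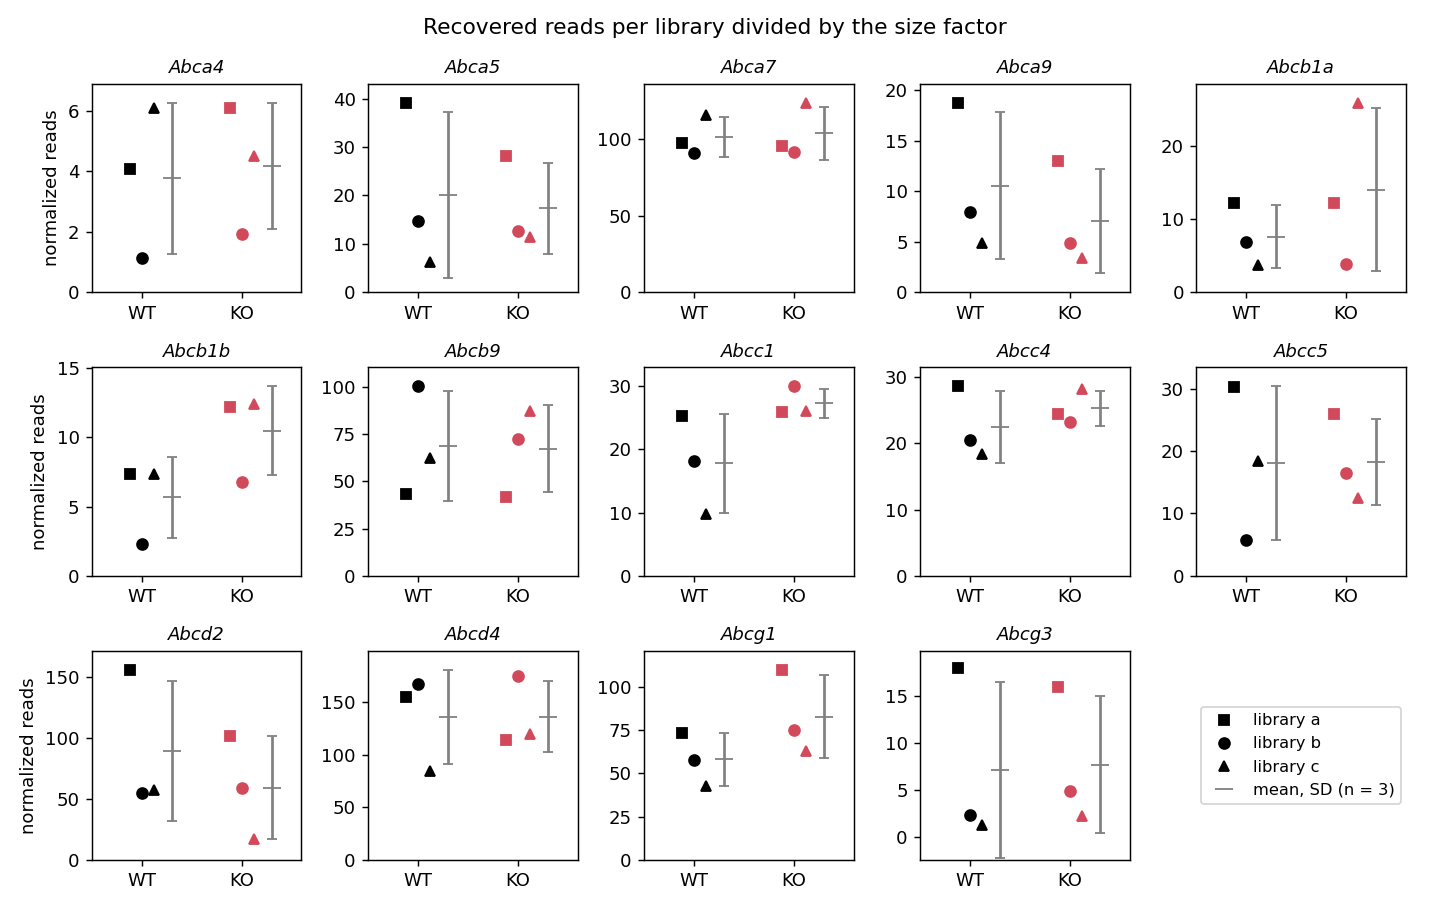
Normalized reads of 14 members in each recovered library, WT in black and KO in red, with squares, circles and triangles for the libraries a, b and c and the mean ± SD (n = 3) in grey. *Abcc1* is the one panel whose genotypes do not overlap, and *Abca5*, *Abca9*, *Abcc5*, *Abcd2*, *Abcg1* and *Abcg3* peak in both a libraries.

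At the bottom of the family, *Abca4* had 8, 2 and 4 reads in KO and 5, 1 and 5 in WT. *Abcc12* had 4, 2 and 0 reads in KO and 0, 1 and 0 in WT. *Abcg4* had 2 reads in WT-a and none elsewhere, so neither gene could be compared at this depth. Of the 16 members, 14 had reads in all 6 libraries, and 11 had at least 3 reads in each. For *Abcc10* no set was kept, and the reads of *Abce1* and the more abundant members were too many to resolve.

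The limma test on log2(normalized reads + 1) covered 3325 genes with sums of 60 to 400, and 5 members among them. No gene passed an adjusted p of 0.05 (0% called), 54 genes had an unadjusted p under 0.05 (1.62%), and no member did either. *Abcc1* had a log2 difference of 0.68 (SE 0.468, limma adjusted p = 0.999). *Abcb1a* had 0.61 (SE 0.820), and 0.03 without KO-c, *Abcc5* 0.21 (SE 0.610), *Abcc4* 0.18 (SE 0.424) and *Abca5* 0.04 (SE 0.658). The standard errors leave room for differences well past 1.5 fold in each of these genes. With a term for the a libraries, 251 genes had an unadjusted p under 0.05, none of them a member, and *Abcc1* kept its 0.68 with an SE of 0.413. Without both a libraries 151 genes had such a p, again none of them a member. On simulated reads of the same 3325 genes, the test called 160 of 200 genes changed 4-fold. In that simulation 4.93% of unchanged genes had an unadjusted p under 0.05, against the 1.62% of all genes here, so its share of calls does not carry over to these libraries.

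Genes that work with the transporters were read in the same deposited values. There 1.57% of all genes with a mean of at least 10 were past 1.5 fold higher and 5.79% lower. LXR is the sterol sensor that controls *Abca1*, *Abcg1*, *Abcg5* and *Abcg8*. Among 10 of its receptors and targets 6 lay above 0 and 4 below, and the median log2 ratio was 0.18. Past 1.5 fold higher was 1, and none was past it lower. That 1 was *Fasn*, the fatty acid synthase, at 1509 in WT and 2555 in KO. *Srebf1*, its regulator, had 1124 in WT and 1490.5 in KO (0.41). Of 7 HDL acceptor and remodelling genes none was past 1.5 fold, with 6 below 0 and a median of -0.19.

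Targets of PPARA, the fasting-activated fatty acid sensor, had 9 of 10 above 0, none past 1.5 fold, and a median of 0.23. Peroxisome import and biogenesis genes, which serve the same organelle as *Abcd2* and *Abcd3*, had 1 of 14 past 1.5 fold higher, none lower, and a median of 0.04. That gene was *Pex11a*, which drives peroxisome division, at 552 in WT and 888 in KO (0.69). For PXR and CAR, the drug sensors that act on *Abcc2* and *Abcc3*, none of 7 was past 1.5 fold, with a median of 0.11, and for NRF2, the antioxidant factor, none of 8, with a median of 0.13.

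Of 6 canalicular partner genes 1 was past 1.5 fold lower and none higher, with a median of -0.06. It was *Tmem30a*, the chaperone subunit of lipid flippases, at 652 in WT and 394 in KO (-0.73), with a transcript GC content of 39.2%. Among all genes with 38% to 41% GC, 34.1% were past 1.5 fold lower. The median of the 6 partner genes was -0.02 against the genes nearest in GC content. Of 9 partners of the E and F classes in translation none was past 1.5 fold, with 6 below 0 and a median of -0.16. Against the genes nearest in GC content that median was -0.03. *Eif2s1* and *Eif2s2*, subunits of the initiation factor that brings the first tRNA, had log2 ratios of -0.56 and -0.48, and their transcripts had 40.8% and 38.7% GC, close to that of *Abce1*.

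Markers of other liver cells were read in the same way, over genes with a mean of at least 10. Besides red cells, 1 of 7 Kupffer cell markers and 1 of 7 stellate cell and fibroblast markers was past 1.5 fold higher, with medians of 0.16 and 0.02. Of 3 genes in the lymphocyte list 1 was past it lower, *Ptprc*, at a log2 ratio of -0.65, and their median was -0.48. The transcript of *Ptprc* had 39.4% GC, and against the genes nearest in GC content the list median was -0.22. None of 8 hepatocyte, 6 cholangiocyte or 6 sinusoidal endothelium markers was past 1.5 fold, with medians of -0.14, -0.02 and -0.08. Of 8 pancreas, gut and fat markers 2 reached a mean of 10, and neither was past 1.5 fold, with a median of 0.05. With the weaker genes counted, 7 of these 8 lay above 0 and 4 were past 1.5 fold higher, where 283 of all 16123 genes were. Those 4 had mean values under 10, near the floor, and their libraries were not compared. They included *Adipoq*, made by fat cells, at 4.82 in WT and 13.1 in KO, and *Plin1*, a coat protein of fat droplets, at 4.60 and 9.71. The part of these cells in the members' ratios was not tested.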

How the data were processed

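PolyA liver RNA was sequenced in 3 WT and 3 KO pools. The submitters' processing notes name HISAT2, StringTie, Cufflinks, GATK, Bowtie2 and RSEM and the build mm10, with no role given. The deposited gene table holds a signal per genotype, reads over size factors, combined over 3 libraries by the authors, with their own fold changes and p-values, which were not used. Clean read counts, and mapped and ribosomal percent per library, were taken as deposited. Members and lists were chosen with earlier results of these data known. Some genes of the family are not reported here, and 8 RefSeq symbols (*Abca12* to *Abca17*, *Abcb5*, *Abcc8*) have no row in the table used.

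Named with values were all members with a mean of at least 50, below that those past 1.5 fold or with libraries that did not overlap, and up to 3 others per list by mean, the highest first. Other weak members were named after their values were seen. From other lists at most 3 genes were named, by size of ratio. Reads per library were recovered as whole numbers that meet the sum of the genotype values to the last digits, in 9022 of 9060 genes with sums up to 600. On simulated reads with sums up to 400 this returned the true set in 8102 of 8102 genes with a single set and 26 of 26 chosen by ratio. At sums of 400 to 600 it was 376 of 376 and 365 of 368. In 2 higher ranges, up to 830, a set was kept for 113 and 49 of 150 genes, each the true one. The simulated ratios were drawn from the shrinkage seen in real genes with sums of 250 to 600, which also set the choice by ratio. Whether that choice holds at higher sums, as for *Abca7* and *Abcd4*, was therefore not tested. limma 3.58.1 (R 4.3.3, trend) used a pseudocount of 1 and Benjamini-Hochberg adjustment. Permutation tests were exact and two-sided. GC content came from GENCODE transcripts of mm10 and was known for 99.0% of genes. SDs and p-values rest on the spread between libraries, each a pool of 3 mice. This spread includes counting noise and the difference between the a libraries and the others. Python 3.11.15 with numpy 2.4.6 and scipy 1.17.1 was used.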

Additional observations from a re-analysis of the deposited data

How the results depend on the processing

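In the deposited values, the counts of members past 1.5 fold and their median held with a pseudocount of 1, a mean of at least 1 and no filter. They also held with centring on the median of all genes, which lifted the median from 0.08 to 0.12. By the means of recovered libraries the calls differed, as given above. The count lower in KO went from 1 to 0 at a 2-fold threshold, and also to 0 when each ratio was set against the genes nearest in GC content, an alternative added after the data were seen. *Abce1* then had -0.44. Over all genes, the calls were 178 higher and 658 lower, 229 and 550 after centring, 18 and 84 at 2 fold, 218 and 266 after the GC step. The GC step turned the sign of *Abca5* to 0.26, *Abcb9* to 0.04, *Abcc5* to -0.04 and *Abcd4* to -0.05.

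No member passed limma in any setting, adjusted or not. Over all genes an unadjusted p under 0.05 was met by 54 genes, by 251 with the library term (2 of them with an adjusted p under 0.05), and by 21 to 169 with 1 library left out. It was met by 91 with sums of 20 to 400, by 151 without both a libraries, by 64 with sums of 60 to 600 and by 338 with that range and the library term. The last 3 were added after the data were seen. Leaving out 1 library gave log2 differences of -0.57 to 0.68 for *Abca5*, -0.41 to 0.70 for *Abcc5*, 0.33 to 0.97 for *Abcc1* and 0.03 to 1.26 for *Abcb1a*.

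The count of members whose libraries do not overlap was 1, 0 when reads were not divided by size factors, and 1 to 3 with 1 library left out, the highest without WT-a. It was 2 without KO-a, KO-b or KO-c. Fewer libraries overlap less often by construction, and the share over all genes was not counted for these settings. No paired analysis was possible because WT pools 1, 2 and 5 and KO pools 2, 3 and 4 share 1 number and the recovered libraries carry none. Members with over about 830 normalized reads have no spread, so *Abce1* was not tested.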
